A study of Mus musculus with 6 samples.

Results

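The genes described here are 58 regulators of the cell division cycle, comprising cyclins and their kinases, E2F factors and pocket proteins, and proteins of the spindle checkpoint, kinetochore, spindle and cytokinesis. They were listed by symbol with earlier results of these data known, Melk and Ckap2 because both had been lower at 4 h. All 58 were found among the 55401 genes of the deposited tables. The measured RNA was newly made RNA, labelled and captured by Click-iT chemistry before sequencing, from iMEF, a line of immortalised fibroblasts from mouse embryos. The 6 samples formed 3 groups of 2, namely cells treated with dTAG for 4 h, cells treated for 8 h, and untreated cells, which per the labels received no dTAG. Per the study, the RNA label was present for 2 h, in a window centred on 4 h or 8 h after dTAG was added. The labelled RNA was then selected by its poly-A tail, so the values are not a snapshot of all nascent RNA. According to the methods of the study, all groups carried a deletion of exon 4 of endogenous Ash2l and a lentiviral construct for FKBP-HA2-ASH2L, a human ASH2L fused to a mutant FKBP12 tag. dTAG-13 ties this tag to the ubiquitin ligase component cereblon, so that the fusion protein is degraded. Such cells were grown as single clones, and neither the clone nor the dose of this experiment is given in the labels. Nothing says that the 2 samples of a group were separate cultures, and the p-values below therefore reflect the spread of these samples alone, which may be technical.

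ASH2L belongs to the core of the KMT2 (COMPASS) methyltransferases, enzymes that place methyl groups on histone H3 lysine 4 near active promoters. Passage through the cell cycle is driven by cyclins, which activate cyclin-dependent kinases, and by waves of transcription. E2F factors, held back by the pocket proteins Rb1 and Rbl1, serve the G1 to S transition. Genes for mitosis are switched on later by B-Myb (Mybl2) and FoxM1, which act through a promoter element called CHR, often beside CCAAT boxes. The comparison asks whether the labelled RNA of such genes already differed from that of untreated cells within hours of removing ASH2L, in cells that depend on it for proliferation.

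The tables hold, for each gene, a mean over the 4 libraries of a comparison, and the values of the single libraries were recovered from these means as whole numbers divided by size factors. For 57 of the 58 genes a single solution existed. Ccnd2, which encodes cyclin D2, was too abundant for this, and only the authors' means are given for it (57130 in the 4 h table and 68214 in the 8 h table). The recovered libraries can be placed in a group but carry no replicate number, and the 2 of a group are called A and B, A having the larger sum. Values below are given as A then B, on a scale common to the 6 libraries (medians of ratios), and are called normalised values. Tests were made within each table, with its own size factors. Sums of the recovered numbers were 17734835 and 12255776 at 4 h, 25008532 and 17511786 at 8 h, and 10443344 and 7415259 in untreated cells. These are not read totals, since gaps in the whole numbers of 4 libraries show that they had been rescaled before rounding.

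Fibroblast markers were detected in every library. The sum of the 7 resolved ones of 10 was 27192 to 28124 at 4 h, 26019 to 28356 at 8 h and 25360 to 27220 in untreated cells. Ash2l itself was 1118 and 947 at 4 h and 950 and 1219 at 8 h, against 921 and 729 in untreated cells (limma, adjusted p = 0.965 at 4 h and 0.892 at 8 h). This does not check the treatment, which acts on the protein. Of the 58 genes, 37 overlap another annotated gene, 29 of them a gene on the other strand, and 3 (Ccnb1, Ccnb2 and Ccnd3) have an annotated pseudogene of their name. The sources used here do not give the strand setting of the counting, and such values may hold reads of a neighbour or a copy.

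None of the 57 tested genes passed the test at either time. At 4 h, limma with Benjamini-Hochberg adjustment called 0 of 14566 genes (0%), and so 0 of the 57, at an adjusted p below 0.05. At 8 h it called 0 of 15084 genes (0%). An unadjusted p below 0.05 was reached at 4 h by 3 of the 57 genes, 5.26%, against 3.61% of all genes tested. Of these, 2 were lower (Melk and Ckap2, against a background of 1.81%) and 1 was higher (E2f8, against 1.8%). Since Melk and Ckap2 were listed for being lower at 4 h, nothing is read from the first of these counts or from the total. Without them 1 of 55 genes (1.82%) had such a p at 4 h. At 8 h the count was 2 of 57, or 3.51%, against 4.56% of all genes. Both were higher (E2f7 and Mad2l1, against 2.29%), and none was lower, against 2.27% of all genes. With Melk and Ckap2 included, leaving out 1 library gave 1 to 5 genes at 4 h (1 without untreated A or without untreated B, and 5 without 4 h B) and 0 to 3 at 8 h (0 without 8 h B, and 1 without 8 h A or without untreated B). No share of all genes is given for these fits with a library left out, so nothing is read from their counts. The median log2 difference of the 57 genes was 0.05 at 4 h and 0.06 at 8 h, beside 0.00 and 0.01 over all genes tested. The size factors bring the bulk of the genes to the same level in each library. A shift of labelled RNA common to all genes would therefore not be seen in these differences. At 4 h 29 genes had a difference above 0 and 28 below it, and at 8 h these counts were 31 and 26. The plot of differences by role shows the genes on both sides of 0 in nearly every role group.

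**Figure D1:**
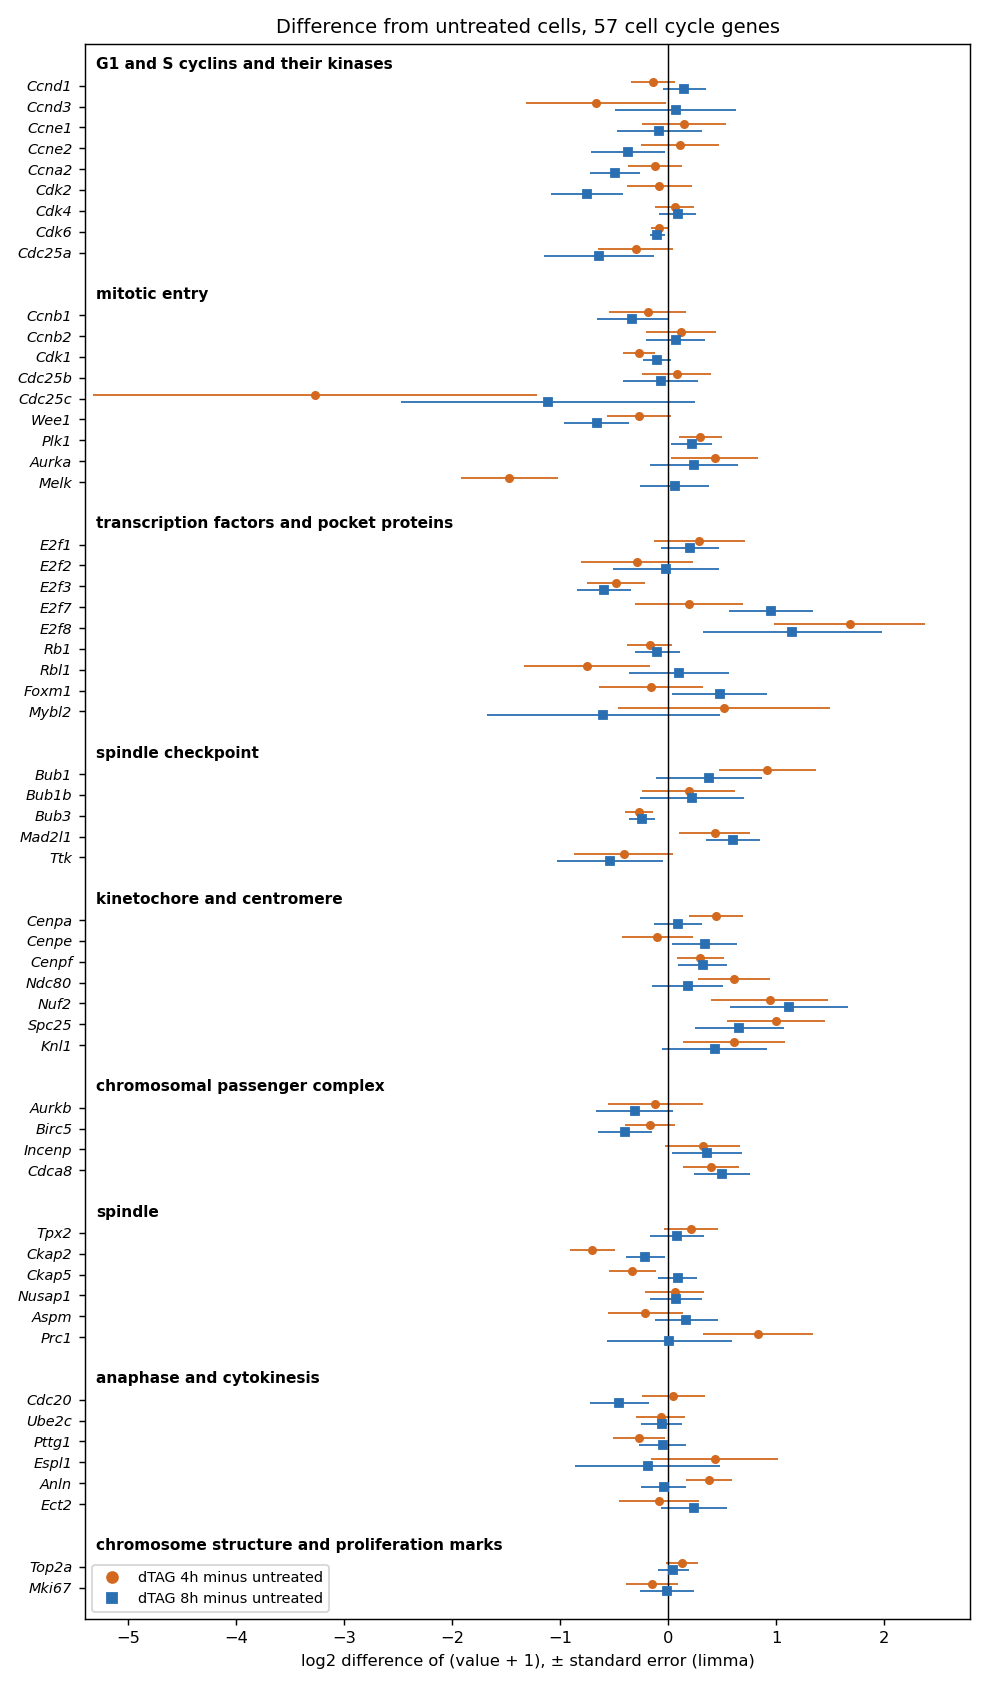
Log2 difference from untreated cells of 57 cell cycle genes at 4 h (circles) and 8 h (squares), on the log2(value + 1) scale with the standard error from limma (bars, n = 2 libraries a group), ordered by role. The median was 0.05 at 4 h and 0.06 at 8 h, Melk and Ckap2 lie left of 0 at 4 h, and the 7 kinetochore genes lie right of 0 at 8 h.

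The values of Melk and Ckap2 are given as a description, and nothing is read from a test of either, since both were listed for being lower at 4 h. Melk (ENSMUSG00000035683, GRCm38 chromosome 4, 44300876 to 44364675) encodes maternal embryonic leucine zipper kinase, which is abundant in dividing cells. Its normalised values were 94.8 and 108 at 4 h, against 294 and 272 in untreated cells, so that the groups were far apart and each was tight. The log2 difference was -1.47 ± 0.45 (SE; 2.77-fold lower). At 8 h Melk stood at 301 and 289, on either side of the higher untreated library, with a log2 difference of 0.06 ± 0.32. Set directly against each other, the 8 h libraries stood 1.53 ± 0.41 above the 4 h libraries on the log2 scale.

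Ckap2 (ENSMUSG00000037725, chromosome 8, 22168160 to 22185819) encodes a protein that binds and stabilises spindle microtubules. Its values were 827 and 665 at 4 h, against 1168 and 1248 in untreated cells, again without overlap. The log2 difference was -0.70 ± 0.21 (SE; 1.63-fold lower). The 8 h libraries, at 1143 and 954, also lay below both untreated libraries, but by only -0.21 ± 0.18 on the log2 scale. At 8 h against 4 h the log2 difference was 0.49 ± 0.20. Melk and Ckap2 were listed for their low values at 4 h, so nothing is read from their rise between 4 h and 8 h. Among the other 55 genes tested, 0 were higher at 8 h than at 4 h with an unadjusted p below 0.05 (limma, 6 libraries). Of all 15163 genes, 2.16% were higher with such a p. None of the 55 was lower with such a p, but the share of all genes for that direction is not given. After adjustment 0 genes (0%) were called.

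**Figure D2:**
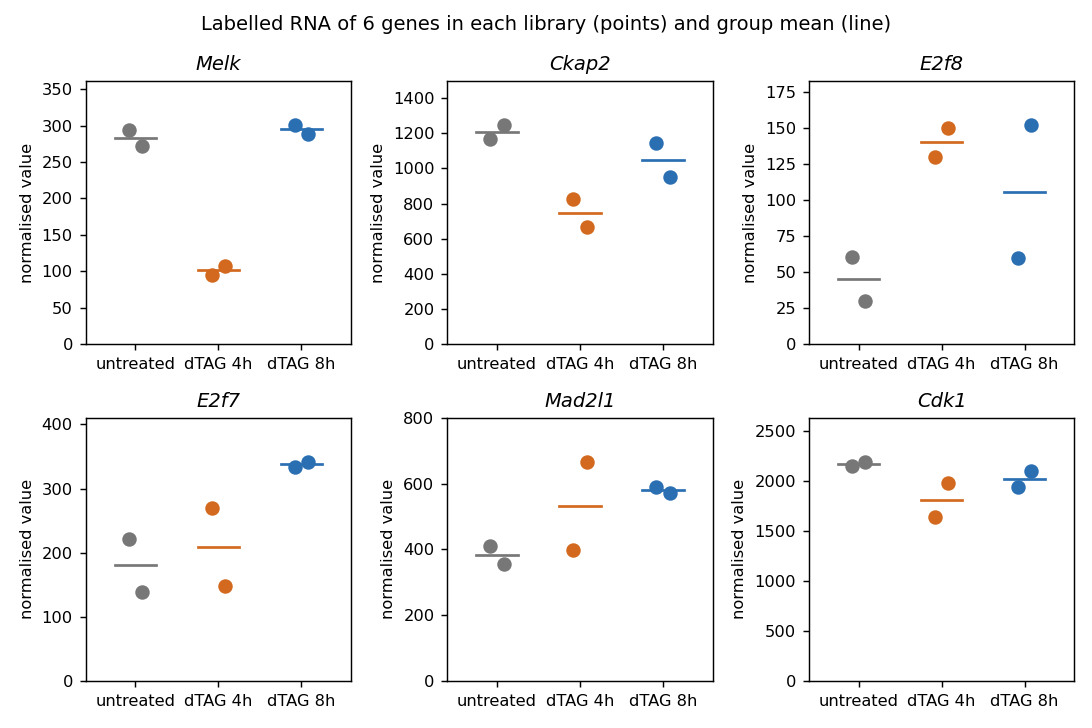
Normalised value of labelled RNA (linear axis from 0) for 6 genes in untreated, 4 h and 8 h libraries, with a point for each library and a line for the mean of 2. The 4 h points of Melk (94.8 and 108) lie below those of untreated cells (294 and 272) and of 8 h (301 and 289), while the 8 h points of E2f8 (59.6 and 152) spread over most of its range.

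The bases before the annotated start of Melk and Ckap2, and of the atypical E2F genes described next, are shown because the values by library turn on these genes and their RefSeq sequence reaches the annotated start. They are from RefSeq (GRCm38.p6), 5′ to 3′ along the strand of the gene, and end at the base before the GENCODE start. Capitals mark matches, on either strand, to CHR (the letters TTTGAA, and as the other form TTTAAA), to CCAAT, and to E2F (the letters TTTCGCGC, also with TTTGGCGC or with TTTCCCGC). Melk is given from chr4:44300667-44300875 on the plus strand, Ckap2 from chr8:22185820-22186069 on the minus strand, E2f8 from chr7:48881597-48881846 on the minus strand and E2f7 from chr10:110745189-110745438 on the plus strand.
Melk: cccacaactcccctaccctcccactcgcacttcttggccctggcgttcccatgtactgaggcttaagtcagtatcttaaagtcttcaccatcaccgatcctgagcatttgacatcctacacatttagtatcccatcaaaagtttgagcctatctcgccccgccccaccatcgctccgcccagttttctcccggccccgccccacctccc
Ckap2: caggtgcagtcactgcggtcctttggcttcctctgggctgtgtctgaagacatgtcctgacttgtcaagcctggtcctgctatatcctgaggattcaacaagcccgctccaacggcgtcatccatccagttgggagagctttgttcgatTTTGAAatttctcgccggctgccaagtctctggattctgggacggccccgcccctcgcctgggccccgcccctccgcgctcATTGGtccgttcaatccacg
E2f8: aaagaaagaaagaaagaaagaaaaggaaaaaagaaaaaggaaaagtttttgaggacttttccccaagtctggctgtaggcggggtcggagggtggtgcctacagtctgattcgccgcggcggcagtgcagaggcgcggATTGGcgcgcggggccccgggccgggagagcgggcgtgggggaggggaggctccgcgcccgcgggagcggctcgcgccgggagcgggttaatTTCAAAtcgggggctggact
E2f7: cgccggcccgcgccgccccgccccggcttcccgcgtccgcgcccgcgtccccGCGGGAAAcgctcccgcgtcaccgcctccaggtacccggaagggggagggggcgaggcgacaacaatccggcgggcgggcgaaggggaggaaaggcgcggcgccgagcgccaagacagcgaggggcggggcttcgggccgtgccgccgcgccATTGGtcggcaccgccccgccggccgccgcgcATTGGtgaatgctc
Ckap2 thus has a CHR match that begins 101 bases before the start and a CCAAT match at 20 bases. E2f8 has a CCAAT match at 112 bases and a CHR match at 20 bases. E2f7 has an E2F match at 198 bases and CCAAT matches at 46 and 14 bases. Melk shows no match in these bases, which says only that these letters are not in them.

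Promoter sequences (250 bases before to 50 bases after the RefSeq start) were held for 47 of the 58 genes. CHR was matched in 31 of the 47 (66%), against 30.6% of 27025 genes, and CCAAT in 32 (68.1%), against 41.1%. Both were present in 26 (55.3%), against 13.4% of all genes. The E2F letters were found in 7 (14.9%), against 2.12%. None of the motifs contains another, and a match is a description of the sequence. Promoters of Ccnd1, Ccnd2, Ccne2, Ccna2, Cdc25c, Wee1, Rb1, Foxm1, Aurkb, Incenp and Tpx2 were not used here.

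**Figure D3:**
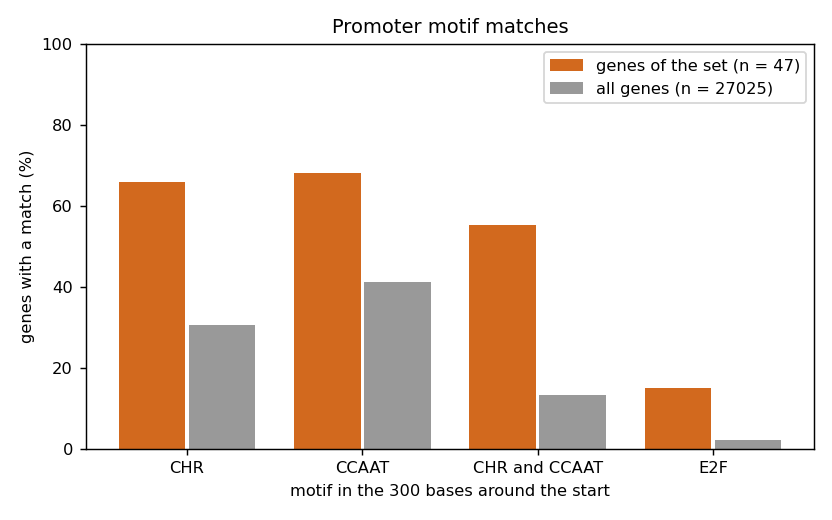
Share of genes (%) with a match to each motif in the 300 bases around the start, for 47 genes of the set (left bars) and all 27025 genes with a sequence (right bars). CHR together with CCAAT was found in 55.3% of the set and 13.4% of all genes.

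Among the transcription factors, E2f7 and E2f8 encode atypical E2F proteins, which bind DNA without a DP partner and repress E2F targets. E2f8 (ENSMUSG00000046179, chromosome 7, 48866429 to 48881596) had a mean over the 6 libraries of 96.9. Its values were 130 and 150 at 4 h, against 60.4 and 29.8 in untreated cells, so the 4 h libraries were above both untreated ones. The log2 difference was 1.68 ± 0.70 (SE; 3.21-fold; limma, unadjusted p = 0.0413, adjusted p = 0.965). At 8 h its libraries stood at 59.6 and 152 and overlapped the untreated values (log2 difference 1.15 ± 0.83). E2f7 (ENSMUSG00000020185, chromosome 10, 110745439 to 110787384) behaved otherwise. It was 269 and 148 at 4 h and thus overlapped untreated cells, at 222 and 138 (log2 difference 0.19 ± 0.50, with the opposite sign without 4 h A, -0.24, or without untreated B, -0.15). At 8 h it was 333 and 342, above both untreated libraries, with a log2 difference of 0.95 ± 0.39 (1.93-fold; limma, unadjusted p = 0.0456, adjusted p = 0.892).

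The activating factors E2f1, E2f2 and E2f3 gave values in different directions. E2f3 was 389 and 479 at 4 h and 386 and 415 at 8 h, against 654 and 554 in untreated cells, so all 4 treated libraries were below both untreated ones. Its log2 difference was -0.48 ± 0.27 at 4 h and -0.59 ± 0.25 at 8 h (limma, unadjusted p = 0.113 and 0.0507). E2f1 was spread widely at 4 h (772 and 313), against 438 and 369 in untreated cells, and stood just above both at 8 h (475 and 449, log2 difference 0.20 ± 0.27). The gene with the highest mean of this group was Rb1 (ENSMUSG00000022105, chromosome 14, 73183673 to 73325822), whose protein binds and silences E2F. It was 1130 and 1128 at 4 h and 1155 and 1212 at 8 h, against 1510 and 1061 in untreated cells, with overlap at both times. Without the untreated library A its log2 difference at 4 h had the opposite sign (0.08, against -0.17 with all libraries), as it did at 8 h (0.16, against -0.10). Rbl1, Foxm1, E2f2 and Mybl2 overlapped untreated cells at both times, with log2 differences between -0.75 and 0.52 at 4 h and between -0.60 and 0.48 at 8 h.

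The cyclins and kinases of G1 and S phase showed no unadjusted p below 0.05 at either time in the 9 genes tested, of which 6 had a difference below 0 at 4 h and 6 at 8 h. The most precisely measured was Cdk6, a partner of the D cyclins (ENSMUSG00000040274, chromosome 5, 3341485 to 3531008). It was 10192 and 10018 at 4 h and 10010 and 9831 at 8 h, against 10261 and 11070 in untreated cells. The log2 differences were -0.08 ± 0.08 and -0.10 ± 0.07, with 95% intervals of -0.26 to 0.10 and -0.27 to 0.07. Ccnd1, Ccne1, Cdk4 and Cdc25a overlapped untreated cells at both times. Ccnd3, which encodes cyclin D3, was 54.4 and 94.8 at 4 h, just below the untreated values of 95.9 and 138, and overlapped them at 8 h. Cdk2, whose kinase works with cyclins E and A, was 484 and 359 at 4 h and 317 and 215 at 8 h, against 470 and 412 in untreated cells. Its log2 difference was -0.75 ± 0.33 at 8 h (limma, unadjusted p = 0.056, adjusted p = 0.892). Ccna2, which encodes the S and G2 cyclin A2, was likewise below both untreated libraries only at 8 h, with 577 and 740 at 4 h and 474 and 536 at 8 h, against 770 and 651 in untreated cells (log2 difference at 8 h -0.49 ± 0.23, unadjusted p = 0.0728 by limma). Ccne2 was also below both untreated libraries at 8 h (224 and 312, against 359 and 326), and overlapped them at 4 h (477 and 285).

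Of the 9 genes of mitotic entry, 4 had a difference above 0 and 5 below it at each time. Cdk1 (ENSMUSG00000019942, chromosome 10, 69335146 to 69352938), the mitotic kinase activated by B cyclins, had the highest mean of them. It was 1637 and 1977 at 4 h and 1940 and 2100 at 8 h, against 2149 and 2191 in untreated cells. All 4 treated libraries were thus below the untreated ones, by -0.27 ± 0.15 at 4 h and -0.10 ± 0.13 at 8 h on the log2 scale, with 95% intervals of -0.62 to 0.08 and -0.40 to 0.20. The B cyclins Ccnb1 and Ccnb2, the phosphatase gene Cdc25b and the kinase gene Aurka overlapped untreated cells at both times. Plk1, which encodes polo-like kinase, was 952 and 1041 at 4 h and 925 and 954 at 8 h, against 765 and 856 in untreated cells (log2 differences 0.30 ± 0.20 and 0.22 ± 0.19). Wee1, whose kinase restrains Cdk1, was 367 and 462 at 4 h, overlapping the untreated values of 570 and 431, and 285 and 344 at 8 h, below both (log2 difference at 8 h -0.66 ± 0.30, unadjusted p = 0.0616 by limma). Cdc25c, a phosphatase that opposes Wee1, was nearly undetected. It was 0 and 4.52 at 4 h and 7.18 and 15.7 at 8 h, against 15.8 and 37.3 in untreated cells, too few for a fold (log2 difference at 4 h -3.27 ± 2.06).

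Spindle checkpoint genes included Mad2l1 (ENSMUSG00000029910, chromosome 6, 66535390 to 66547220), whose protein holds back anaphase until all kinetochores are attached. It was 399 and 667 at 4 h, against 410 and 356 in untreated cells, and these overlapped. At 8 h it was 590 and 570, above both untreated libraries, with a log2 difference of 0.60 ± 0.25 (1.52-fold; limma, unadjusted p = 0.0469, adjusted p = 0.892). Bub3, which encodes another checkpoint protein (ENSMUSG00000066979, chromosome 7, 131560222 to 131571895) had the highest mean of the group and was lower in all treated libraries. It was 2411 and 2291 at 4 h and 2356 and 2430 at 8 h, against 2942 and 2728 in untreated cells. The log2 difference was -0.27 ± 0.13 at 4 h and -0.24 ± 0.12 at 8 h (limma, unadjusted p = 0.0655 and 0.0762). Bub1 was 379 and 243 at 4 h, against 125 and 205 in untreated cells (log2 difference 0.92 ± 0.45, unadjusted p = 0.075 by limma), and overlapped them at 8 h. Bub1b and Ttk overlapped untreated cells at both times.

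Among the kinetochore and centromere genes, 6 of 7 had a difference above 0 at 4 h (median 0.61) and 7 of 7 at 8 h (median 0.34). None had an unadjusted p below 0.05, the 2 comparisons share the untreated libraries, and in 4 of the 7 (Cenpe, Cenpf, Spc25 and Knl1) the untreated library B was the lowest of the 6, and in the other 3 (Cenpa, Ndc80 and Nuf2) it was the untreated library A. Nuf2 and Spc25 encode subunits of the NDC80 complex, which grips microtubule ends. Nuf2 was 184 and 178 at 4 h and 161 and 258 at 8 h, against 71 and 123 in untreated cells. Spc25 was 351 and 715 at 4 h and 449 and 348 at 8 h, against 347 and 179 in untreated cells. All 4 treated libraries of both genes were above the untreated ones, with log2 differences of 0.94 ± 0.54 and 1.12 ± 0.55 for Nuf2 and 1.00 ± 0.45 and 0.66 ± 0.41 for Spc25. Ndc80 itself was 407 and 463 at 4 h, against 247 and 324 in untreated cells, and overlapped them at 8 h (328 and 313, log2 difference 0.18 ± 0.33). Cenpa, which encodes the histone variant that marks centromeres, was 1151 and 798 at 4 h, against 635 and 787 in untreated cells, and overlapped them at 8 h (797 and 707, log2 difference 0.09 ± 0.22). The gene with the highest mean, Cenpf (ENSMUSG00000026605, chromosome 1, 189640606 to 189688086), was 1329 and 1091 at 4 h and 1391 and 1067 at 8 h, against 1150 and 828 in untreated cells, with overlap at both times. A list of 33 further kinetochore and centromere genes had 12 differences above 0 and 21 below it at 4 h, and the same numbers at 8 h, with a median of -0.10 at each time.

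In the chromosomal passenger complex, which corrects faulty attachments and starts cytokinesis, Cdca8 was 595 and 728 at 4 h and 831 and 591 at 8 h, against 547 and 453 in untreated cells (log2 differences 0.40 ± 0.26 and 0.50 ± 0.26). Birc5, which encodes survivin (ENSMUSG00000017716, chromosome 11, 117849251 to 117855743), was 670 and 790 at 4 h and 741 and 517 at 8 h, against 737 and 912 in untreated cells, with overlap at both times. So did Aurkb, the kinase of the complex, and its scaffold Incenp. The spindle genes other than Ckap2 had no unadjusted p below 0.05. Ckap5, which encodes a microtubule polymerase, was 644 and 684 at 4 h and 902 and 872 at 8 h, against 832 and 835 in untreated cells. It was thus below both untreated libraries at 4 h and above both at 8 h, and the difference between the times was 0.42 on the log2 scale (limma, unadjusted p = 0.0594, adjusted p = 0.962). Prc1, whose protein bundles the midzone of the spindle, was 252 and 213 at 4 h, against 188 and 89.5 in untreated cells, and overlapped them at 8 h (153 and 111, log2 difference 0.01 ± 0.58). Tpx2, Nusap1 and Aspm had log2 differences between -0.21 and 0.21 at both times.

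Anln, which encodes the contractile ring protein anillin (ENSMUSG00000036777, chromosome 9, 22332012 to 22389188), was 1216 and 1207 at 4 h, against 807 and 1067 in untreated cells (log2 difference 0.38 ± 0.21, unadjusted p = 0.0991 by limma). At 8 h it was 847 and 955, within the untreated range (log2 difference -0.04 ± 0.21, but 0.16 without untreated B and 0.04 without 8 h A). Cdc20, an activator of the anaphase-promoting complex, was 441 and 354 at 8 h, against 502 and 580 in untreated cells (log2 difference -0.45 ± 0.27), and overlapped them at 4 h (458 and 680, log2 difference 0.05 ± 0.29). Ube2c, Pttg1, Espl1 and Ect2 had log2 differences between -0.27 and 0.43 at 4 h and between -0.19 and 0.24 at 8 h. Neither proliferation mark had an unadjusted p below 0.05. Top2a, which encodes the topoisomerase that disentangles chromatids (ENSMUSG00000020914, chromosome 11, 98992943 to 99024189), was 1863 and 1891 at 4 h and 1718 and 1848 at 8 h, against 1777 and 1662 in untreated cells. The 95% interval of its log2 difference was -0.21 to 0.46 at 4 h and -0.27 to 0.38 at 8 h. Mki67 was 607 and 628 at 4 h and 565 and 815 at 8 h, against 633 and 740 in untreated cells.

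The libraries of the 2 groups did not overlap at 4 h in 24 of the 57 genes (42.1%, with Melk and Ckap2, against 32.5% of all genes tested), 13 higher (22.8%, against 16.3%) and 11 lower (19.3%, against 16.3%). Without Melk and Ckap2 there were 22 of 55 (40%), with 9 lower (16.4%). At 8 h they did not overlap in 20 genes (35.1%, against 34.1%), 8 higher (14%, against 17.6%) and 12 lower (21.1%, against 16.5%). Some genes, such as E2f3, Cdk1, Bub3, Nuf2 and Spc25, stood apart from untreated cells at both times. The comparisons at 4 h and 8 h share the untreated libraries, and no share of all genes is given for this pattern. Nothing is therefore read from it. The map of values by library shows both kinds of row, those where the libraries of a group stand together and those where they part.

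**Figure D4:**
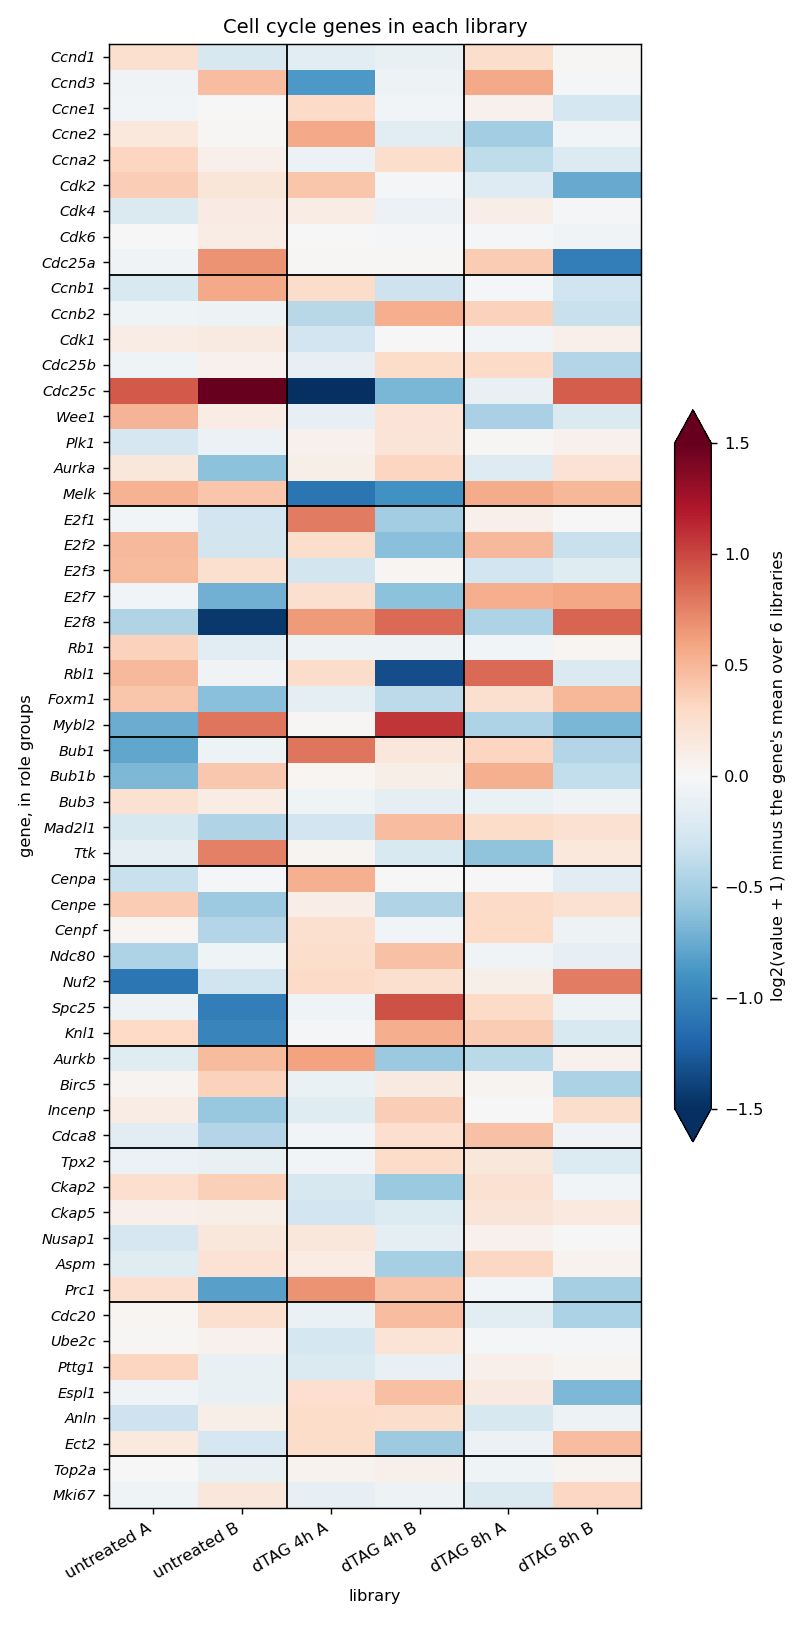
Log2(value + 1) of 57 genes in each of the 6 libraries minus the mean of the gene, with rows in role groups (black lines) and columns by group. Melk is low in both 4 h libraries (94.8 and 108), whereas Rbl1 is low in only 1 of them (83.6, against 256 in the other).

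The size of a difference that could be seen depended on the level of the gene. For the 16 genes with a mean under 300, the median absolute log2 ratio between the 2 libraries of a group was 0.30 at 4 h, 0.64 at 8 h and 0.77 in untreated cells. For the 31 genes from 300 to 1000 it was 0.43, 0.28 and 0.31. For the 10 genes with a mean of at least 1000 it was 0.07, 0.12 and 0.22. All genes with a mean under 300 had 0.84 at 4 h, 0.83 at 8 h and 0.85 in untreated cells. All genes from 300 to 1000 had 0.29, 0.27 and 0.29, so the genes of the set at that level spread more at 4 h (0.43). All genes of at least 1000 had 0.14, 0.13 and 0.16. In 27 of the 57 genes at 4 h, and in 27 at 8 h, the 95% interval of the log2 difference lay between -1 and 1, so that a change of 2-fold or more was outside it. For the rest, the interval reached a 2-fold change in at least 1 direction.

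**Figure D5:**
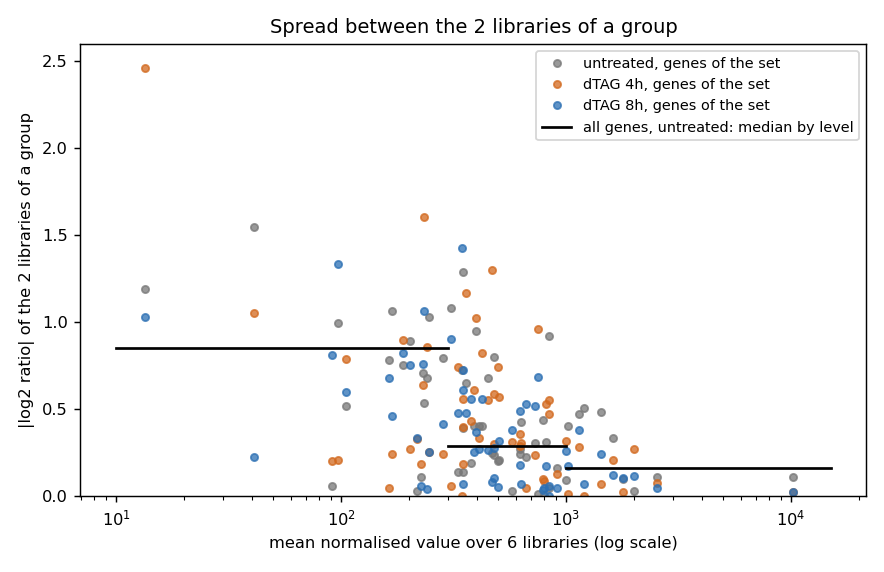
Absolute log2 ratio of the 2 libraries of a group against the mean normalised value over 6 libraries (log axis), with a point for each of 57 genes and each group, and black lines for the median of all genes in untreated cells by level (0.85 under 300, 0.29 from 300 to 1000, 0.16 from 1000). The members from 1000 have the smallest medians in all 3 groups (0.07 at 4 h, 0.12 at 8 h and 0.22 in untreated cells).

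A further list of 86 mitosis and cell cycle genes was read beside these. Of the 84 tested, 0 were called at either time. At 4 h an unadjusted p below 0.05 (limma) came with a higher value in 2 (2.38%, against 1.8% of all genes) and a lower one in 2 (2.38%, against 1.81%). At 8 h 0 had such a p, against 4.56% of all genes. The 4 genes at 4 h are described because of that p, and each had an adjusted p of 0.965. Over the 84 genes the median log2 difference was -0.07 at 4 h and -0.10 at 8 h. Knstrn, which encodes a kinetochore adaptor, was 191 and 194 at 4 h, against 397 and 386 in untreated cells (log2 difference -1.02 ± 0.35, adjusted p = 0.965 by limma) and 249 and 238 at 8 h. E2f5 was 156 and 226 at 4 h, against 398 and 405 in untreated cells (log2 difference -1.09 ± 0.37), and 370 and 225 at 8 h. Higher at 4 h were Pmf1, a subunit of the MIS12 complex (417 and 366, against 219 and 196 in untreated cells, log2 difference 0.91 ± 0.35), and E2f6 (694 and 764, against 284 and 569, log2 difference 0.85 ± 0.35). At 8 h Pmf1 stood at 179 and 170, below both untreated libraries, and E2f6 at 697 and 569. Pkmyt1 and Nek2 had means below 10 and were not tested.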

How the data were processed

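Reads had been trimmed with Trim Galore, aligned to mm10 with STAR, assigned to genes (GENCODE M25) with featureCounts, scaled with ERCC spike-ins and compared with DESeq2 by the authors, per the methods of the study. The notes the submitters gave with their files also list mm10, DESeq2, BWA, MACS2, SAMtools and deepTools, with no version. On the library kit the sources differ, since a stranded kit for total RNA stands in the labels and a kit for 3′ ends of mRNA in the methods.

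The only column used was the signal deposited by the authors as the mean of normalised counts over the 4 libraries of a comparison, with 1 table for 4 h and 1 for 8 h. The authors' columns of fold changes, standard errors, p and adjusted p, and the lists of called genes, hold their own comparison and were not used. Each mean is a sum of whole numbers, each multiplied by a step that is the same for every gene of a library. The steps were found from low means, and the whole numbers of the 6 libraries were solved jointly from both tables (Python 3.11.15). Of 23783 genes with a mean above 0, 23644 had 1 solution and were used. For 139 of high level no single solution was found, because several existed or because the search grew too large. In 3671 of 3671 low genes the same pair of libraries had equal numbers in both tables, which makes it the untreated pair (1776 for the next best pair). On simulated means of 3869 genes, 99.9% were recovered exactly. The simulation drew on genes with 1 solution and used the same steps, so it tests neither the steps nor the 139 genes. Missing whole numbers (5 to 36 of the first 100 in 4 libraries) point to rescaling before rounding, so no count model was used.

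Genes with a deposited mean of at least 10 were tested as log2(value + 1) with limma 3.58.1 (trend, empirical Bayes, two-sided) in R 4.3.3, within each table, and 8 h against 4 h over 6 libraries on a common scale. P-values were adjusted by Benjamini-Hochberg over all genes tested, and called below 0.05. Fold changes understate those of low genes. In data simulated with 200 changed genes, 32% of 2-fold and 52% of 4-fold changes were called for 4 h (14566 genes), and 28% and 56% for 8 h (15084 genes). Of the unchanged genes, 0 were called for 4 h and 5 for 8 h. These shares hold for that simulation and its number of changed genes, which is not known for the real data. Alternatives were pseudocounts of 0.5 and 5, other filters, scalings, variance models, and leaving out each library.

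The genes, lists and tests were chosen with earlier results of these data known. No exact p is given for Melk or Ckap2, which are counted among the genes with an unadjusted p below 0.05 at 4 h. Described by library were Melk, Ckap2, every gene with an unadjusted p below 0.05 and the gene with the highest mean of each role group. Other genes described by library were chosen after their values were seen.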

Additional observations from a re-analysis of the deposited data

How the results depend on the processing

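No member of the set was called in any of 40 alternatives. No paired analysis was possible because the recovered libraries carry no replicate number. Over all genes, where limma called 0 at both times (526 and 688 genes had an unadjusted p below 0.05), 3 genes were called at 4 h and 3 at 8 h with a mean of at least 100, and 82 and 97 without the trend in the spread. With weights by level (vooma), chosen after seeing the data, 2 were called at 4 h. A robust spread, also chosen after seeing the data, called 0 at both times. Genes of the set, Melk and Ckap2 included, below an unadjusted p of 0.05 numbered 3 at 4 h, but 5 with all 6 libraries in 1 fit, and 1 to 5 when a library was left out (1 without untreated A, 1 without untreated B, 5 without dTAG 4h B). At 8 h they numbered 2, but 1 with a pseudocount of 5, 1 with all 6 libraries in 1 fit, 1 without the trend, 4 without a filter, 4 with weights by level, and 0 to 3 when a library was left out (0 without dTAG 8h B, 1 without dTAG 8h A, 1 without untreated B). The share of all genes below that p is given only for the main fit (3.61% at 4 h and 4.56% at 8 h). Nothing is therefore read from these counts or from their changes, and the cause of the changes was not tested. The log2 differences of 12 genes (Melk, Ckap2, E2f7, E2f8, Mad2l1, Cdk1, Rb1, Bub3, Cenpf, Birc5, Anln and Top2a) were repeated, and of 334 repeats 6 changed sign, each on leaving out a library: Rb1 at 4 h (-0.42 to 0.08) and 8 h (-0.35 to 0.16), E2f7 at 4 h (-0.24 to 0.61; -0.15 without untreated B and -0.24 without dTAG 4h A) and Anln at 8 h (-0.24 to 0.16; 0.16 without untreated B and 0.04 without dTAG 8h A). Melk at 4 h ranged from -1.57 to -1.37, Ckap2 from -0.86 to -0.55 and E2f8 from 1.19 to 2.18 over all alternatives. Melk and Ckap2 were listed for being lower at 4 h and E2f8 was described for its p, so nothing is read from these ranges. The median over the set ranged from -0.09 to 0.09 at 4 h and from -0.06 to 0.12 at 8 h. Under other scalings the median of all genes lay between -0.01 and 0.02. Each scaling levels the bulk of the genes between libraries, so these medians cannot show a shift common to all genes.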

Other observations

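Beside the fibroblast genes, transcripts that mark endothelial cells were detected in every library. Pecam1, which encodes the adhesion protein CD31, was 6525 and 7064 at 4 h and 6538 and 6503 at 8 h, against 6237 and 5787 in untreated cells. Cdh5, which encodes VE-cadherin, was 2945 and 3075 at 4 h and 2878 and 3225 at 8 h, against 2771 and 2818 in untreated cells. The third endothelial marker, the receptor gene Kdr, was 73.1 and 105 at 4 h and 189 and 170 at 8 h, against 209 and 183 in untreated cells. Epithelial markers summed to 1013 to 1206 at 4 h, 1034 to 1159 at 8 h and 1071 to 1208 in untreated cells. Blood markers summed to 122 to 164 at 4 h, 130 to 167 at 8 h and 237 to 265 in untreated cells. These values are given as measured, and their part in the results on cell cycle genes was not tested.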
